A study of Mus musculus with 24 samples.

Results

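The nuclear-encoded subunits of the respiratory chain are described here across time in mouse intestinal tumours from which Lgr5+ cells were depleted. Members were chosen by symbol and by the deposited counts: all protein-coding genes whose symbols mark them as subunits of complexes I to V (Ndufa, Ndufb, Ndufc, Ndufs, Ndufv, Sdh, Uqcr, Cyc1, Cox4i, Cox5 to Cox8 and Atp5) and whose counts summed to at least 500 over the 24 libraries. Of 89 genes with such symbols, 78 met the threshold, out of 36528 gene rows in all. They divide into 37 subunits of complex I, 4 of complex II, 9 of complex III, 13 of complex IV and 15 of complex V. The threshold rests on the count of uniquely aligned reads, which sequence shared with other genes can lower, so levels are given as a description. Cox4i2, with 590 counts, and Cox7a1, with 913, lay just inside it, and Ndufb4 with 410, Atp5l with 298, Atp5g2 with 280, Cox6b2 with 229 and Ndufs5 with 180 just outside.

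RNA was sequenced from cells sorted from small-intestine tumours of mice. The design text states that Lgr5-expressing cells, the stem-like cells of intestinal epithelium and its tumours, were depleted with diphtheria toxin (DT). Groups were DT at 24, 48 and 96 h and saline at 24, 48 and 96 h, with 4 libraries in each of 6 groups. Every group, saline included, carries the genotype recorded as AKVPL, whose letters the labels do not spell out, and no age or sex is given. EpCAM, a protein of the epithelial cell surface, appears in the sample names, and the recorded sort is bulk. Nothing in the labels ties the libraries to separate animals; the p-values below therefore reflect variation among libraries, some or all of which may be technical.

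The respiratory chain sits in the inner mitochondrial membrane. Complexes I and II pass electrons from NADH and succinate to ubiquinone, complex III passes them on to cytochrome c, complex IV reduces oxygen, and complex V, the ATP synthase, uses the resulting proton gradient to make ATP. Most subunits are encoded in the nucleus and imported, while the mitochondrial genome encodes the remainder, so complexes I, III, IV and V draw on both genomes. In the intestinal crypt, Lgr5+ stem cells are known for high oxidative phosphorylation.

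Respiratory chain genes are textbook targets of NRF1, of the ETS factor GABPA (NRF2), of ERR alpha and of YY1, and the 250 bases before the start of transcription were therefore searched in RefSeq promoters (GRCm38.p6). A promoter was found for 63 members. The promoters of 4 members follow, each 5′ to 3′ on the strand of its gene and ending at the last base before the start, with motif matches in capitals. Uqcrc1 (chr9:108936398-108936647, plus strand) was chosen as a member higher after DT at both 24 and 48 h, and Sdhd (chr9:50603850-50604099, minus strand) likewise. Cox6a1 (chr5:115348959-115349208, minus strand) holds both an NRF1 and an ETS motif, and Cox7a2l (chr17:83514334-83514583, minus strand) was the member that was lower after DT.
Uqcrc1: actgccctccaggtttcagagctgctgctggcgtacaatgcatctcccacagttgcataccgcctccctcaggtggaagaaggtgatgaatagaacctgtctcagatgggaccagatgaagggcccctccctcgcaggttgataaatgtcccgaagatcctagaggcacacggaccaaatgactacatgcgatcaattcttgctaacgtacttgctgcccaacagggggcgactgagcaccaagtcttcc
Sdhd: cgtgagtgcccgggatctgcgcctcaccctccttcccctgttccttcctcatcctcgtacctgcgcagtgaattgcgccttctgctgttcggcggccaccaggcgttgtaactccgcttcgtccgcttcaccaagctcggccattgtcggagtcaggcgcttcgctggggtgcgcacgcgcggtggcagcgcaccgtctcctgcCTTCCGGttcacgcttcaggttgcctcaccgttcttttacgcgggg
Cox6a1: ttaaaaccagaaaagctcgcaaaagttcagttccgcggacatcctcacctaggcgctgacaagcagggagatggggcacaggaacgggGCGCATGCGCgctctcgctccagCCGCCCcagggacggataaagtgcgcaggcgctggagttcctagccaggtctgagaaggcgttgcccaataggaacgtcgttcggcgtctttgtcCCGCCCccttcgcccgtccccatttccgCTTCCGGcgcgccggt
Cox7a2l: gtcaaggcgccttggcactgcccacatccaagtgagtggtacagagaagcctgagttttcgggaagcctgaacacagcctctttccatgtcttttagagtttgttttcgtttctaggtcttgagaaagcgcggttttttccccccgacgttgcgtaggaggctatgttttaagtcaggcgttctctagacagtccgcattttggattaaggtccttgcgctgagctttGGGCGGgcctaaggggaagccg
The capitals mark an ETS match 46 bases before the start in Sdhd. In Cox6a1 they mark the NRF1 match at 162 bases, the SP1 matches at 139 and 44 bases and the ETS match at 16 bases before the start, and in Cox7a2l an SP1 match at 22 bases. None of the motifs searched lay in this window of Uqcrc1.

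Both strands were searched, and the motifs do not contain each other. The NRF1 motif, whose letters are the capitals at 162 bases in Cox6a1, was present in 3 of the 63 members (4.76%: Atp5k, Cox6a1 and Ndufa11), against 1.68% of the 11541 tested genes with a promoter, both counted by gene. Counted by promoter, of which a gene can have several, it was in 1.07% of all 21263. The ETS motif CCGGAAG was present in 11 members (17.5%), against 14.1% of tested genes and 8.98% of all promoters. The ERR alpha motif TCAAGGTCA was found in Atp5g3 alone (1.59%, against 0.295% of tested genes and 0.32% of all promoters) and the YY1 motif AAGATGG in Atp5j alone (1.59%, against 5.06% and 4.13%). The SP1 motif GGGCGG, a general promoter element, was found in 23 members (36.5%), against 61.3% of tested genes and 42.6% of all promoters. Among the 39 members with a promoter that were higher after DT at 24 h, 8 held the ETS motif and 2 the NRF1 motif, and among the other 24 members 3 and 1 did. These shares are descriptions, and a match is not evidence of binding.

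Total counts per library ran from 10.9 to 27.7 in units of 1e6, and all 78 members were among the 17468 genes tested. The targeted gene Lgr5, a receptor for R-spondins that enhances Wnt signalling, had 84.1, 84.9, 77.0 and 79.6 CPM (counts scaled to 1e6 per library) in the DT libraries at 24 h, against 179, 209, 194 and 217 in the saline libraries, a log2 fold change of -1.30 ± 0.12 (SE, adjusted p = 4.4e-08, edgeR's quasi-likelihood test). At 48 h replicate 3 of the DT group had 171 CPM of Lgr5, within the saline range of 164 to 198, and on the first principal component of all genes (28.4% of the variance) its score was -2.97, whereas the remaining DT libraries at 48 h scored 18.4 to 30.9 and every saline library scored below 0. Results for the members at 48 h are therefore also given without this library. As it was picked for values close to saline, larger differences without it are no separate support for a DT effect.

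Per transcript length, the members were among the most abundant mRNAs of these tumours. On the authors' nRPKM scale, an RPKM adjusted by a size factor, the median member had 64.8 and the median tested gene 6.04, and 56 of the 78 members (71.8%) lay above 36.5 nRPKM, the level that the top 10% of tested genes exceed. The medians of complexes II, III, IV and V were close to each other, at 78.0, 87.4, 85.2 and 88.7 nRPKM, and that of complex I was 41.7. Atp5b, the catalytic beta subunit of the ATP synthase, had the highest level of all at 547 nRPKM (range over libraries 468 to 857), followed by Atp5a1, its alpha subunit, at 338, and Cox4i1, the common form of a regulatory subunit of complex IV, at 333. The highest in complex II was Sdhd (99.8 nRPKM) and in complex III Uqcrh (144 nRPKM). The lowest were Ndufab1 in complex I (4.32 nRPKM), Sdhb in II (66.6), Uqcrb in III (11.3), Cox4i2 in IV (1.41) and Atp5g1 in V (6.25).

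**Figure D1:**
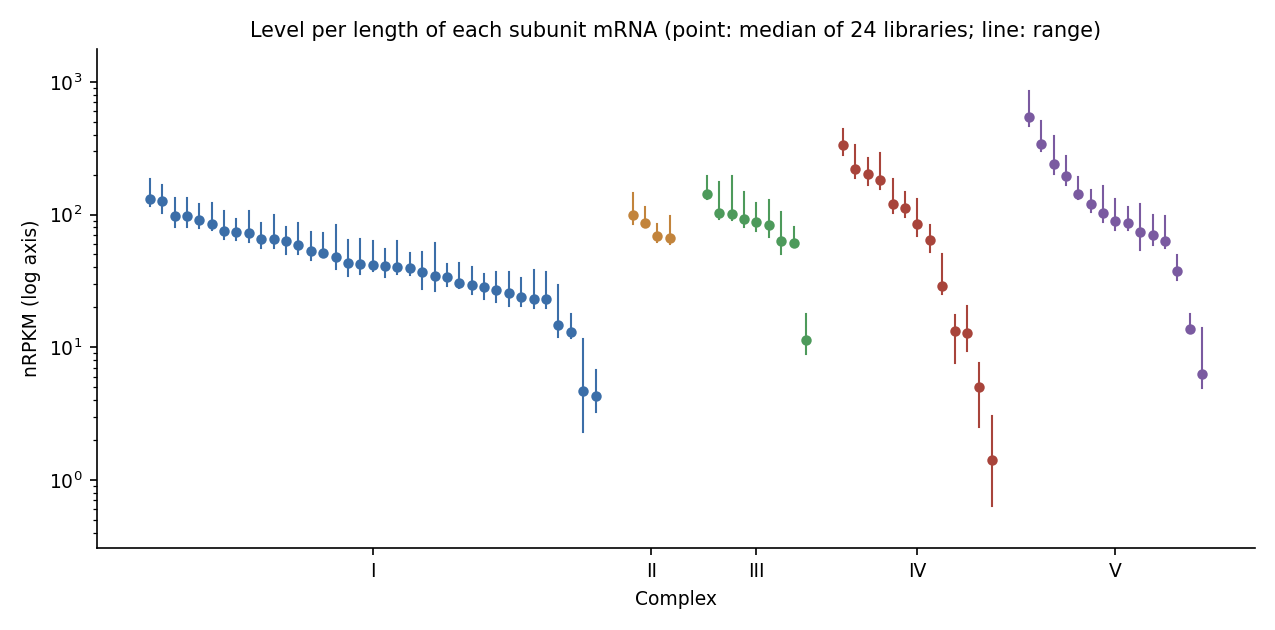
Level per length of each of the 78 subunit mRNAs by complex, in nRPKM on a log axis; each point is the median of 24 libraries and each line the range over them. Most members lie above the median tested gene at 6.04 nRPKM, and Cox4i2, at 1.41, is the lowest.

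Where a subunit has tissue-specific forms, the general form dominated. Cox4i1 had a median of 333 nRPKM and Cox4i2, a form known from lung, 1.41. Cox7a2 had 85.2 nRPKM and the heart and muscle form Cox7a1 4.97. Ndufa4, assigned to complex I by its name and since placed in complex IV, had 72.1, and its hypoxia-responsive relative Ndufa4l2 4.65. The muscle and testis forms Cox6a2, Cox6b2, Cox7b2, Cox8b and Cox8c summed to 22, 229, 0, 4 and 1 counts over all 24 libraries and are not members, whereas Cox6a1, Cox6b1, Cox7b and Cox8a are. A shared sequence could lower or shift some of these levels, since the deposited count holds uniquely aligned reads. In GENCODE M21 transcripts, 35 of 77 members shared no 50-base window with a transcript of another gene, 23 shared over 10% of their windows, and Atp5o shared 50.3%, Atp5h 47.9%, Uqcrb 43.4% and Ndufs3 39.7%. Values of these members are uncertain to that extent, as are those of Atp5pb (38.7%), Ndufb6 (34.1%), Cox5a (32.0%), Cox5b (25.9%), Uqcrc2 (24.8%) and Cox7a2l (17.7%). Of the genes just outside the count threshold, Atp5l shared 84.8%, Ndufb4 37.0%, Ndufs5 31.1%, Atp5g2 14.8% and Cox6b2 0.0%. A low count of the first 4 therefore need not mean a low level, which was not tested.

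At 24 h after DT the respiratory chain genes were higher as a group. Of the 78 members 47 rose, 1 fell and 30 did not pass the test (adjusted p under 0.05 over all genes tested). Of all genes tested, 19.9% were called higher and 18.9% lower at this time, so the members' share called higher was 60.3% and their share called lower 1.28%. The median log2 fold change of the members was 0.30, a 1.23-fold difference, with quartiles of 0.14 and 0.43, and the median of all genes was -0.004. In 46 members every DT library lay above every saline library, and in 1 below (background 34.4% of genes, 18.1% above and 16.2% below). The changes were small, and 5 members exceeded 1.5-fold.

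Summed over the members, the DT libraries at 24 h had 9489, 9341, 11042 and 10359.7 CPM, against 8472, 7866, 7705 and 8023 in the saline libraries, 25.5% more with no overlap. In bulk samples of this kind, a different mix of cells and a different RNA content per cell cannot be told apart. Summed CPM of the epithelial markers overlapped between the groups (10 genes, 7435 to 9284 in DT and 7185 to 7800.4 in saline), with Krt18 (log2 fold change 0.37) and Cldn7 (0.36) among 3 called higher and 2 called lower. The median log2 fold change of the 10 was 0.08, with 6 values positive and 4 negative, the lowest at -0.26. Epcam itself had a median of 1418 CPM over all libraries, so the labelled epithelial cells were present. The 12 fibroblast markers were detected in every library too, led by Col1a1 at a median of 2335 CPM, and their sums were 3185 to 7402 CPM in DT and 3844 to 4539 in saline, with 2 called higher (Dcn and Pdgfra). All 12 had a positive log2 fold change at 24 h, with a median of 0.50, larger than the members' median of 0.30. Their part in the respiratory chain result was not tested.

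**Figure D2:**
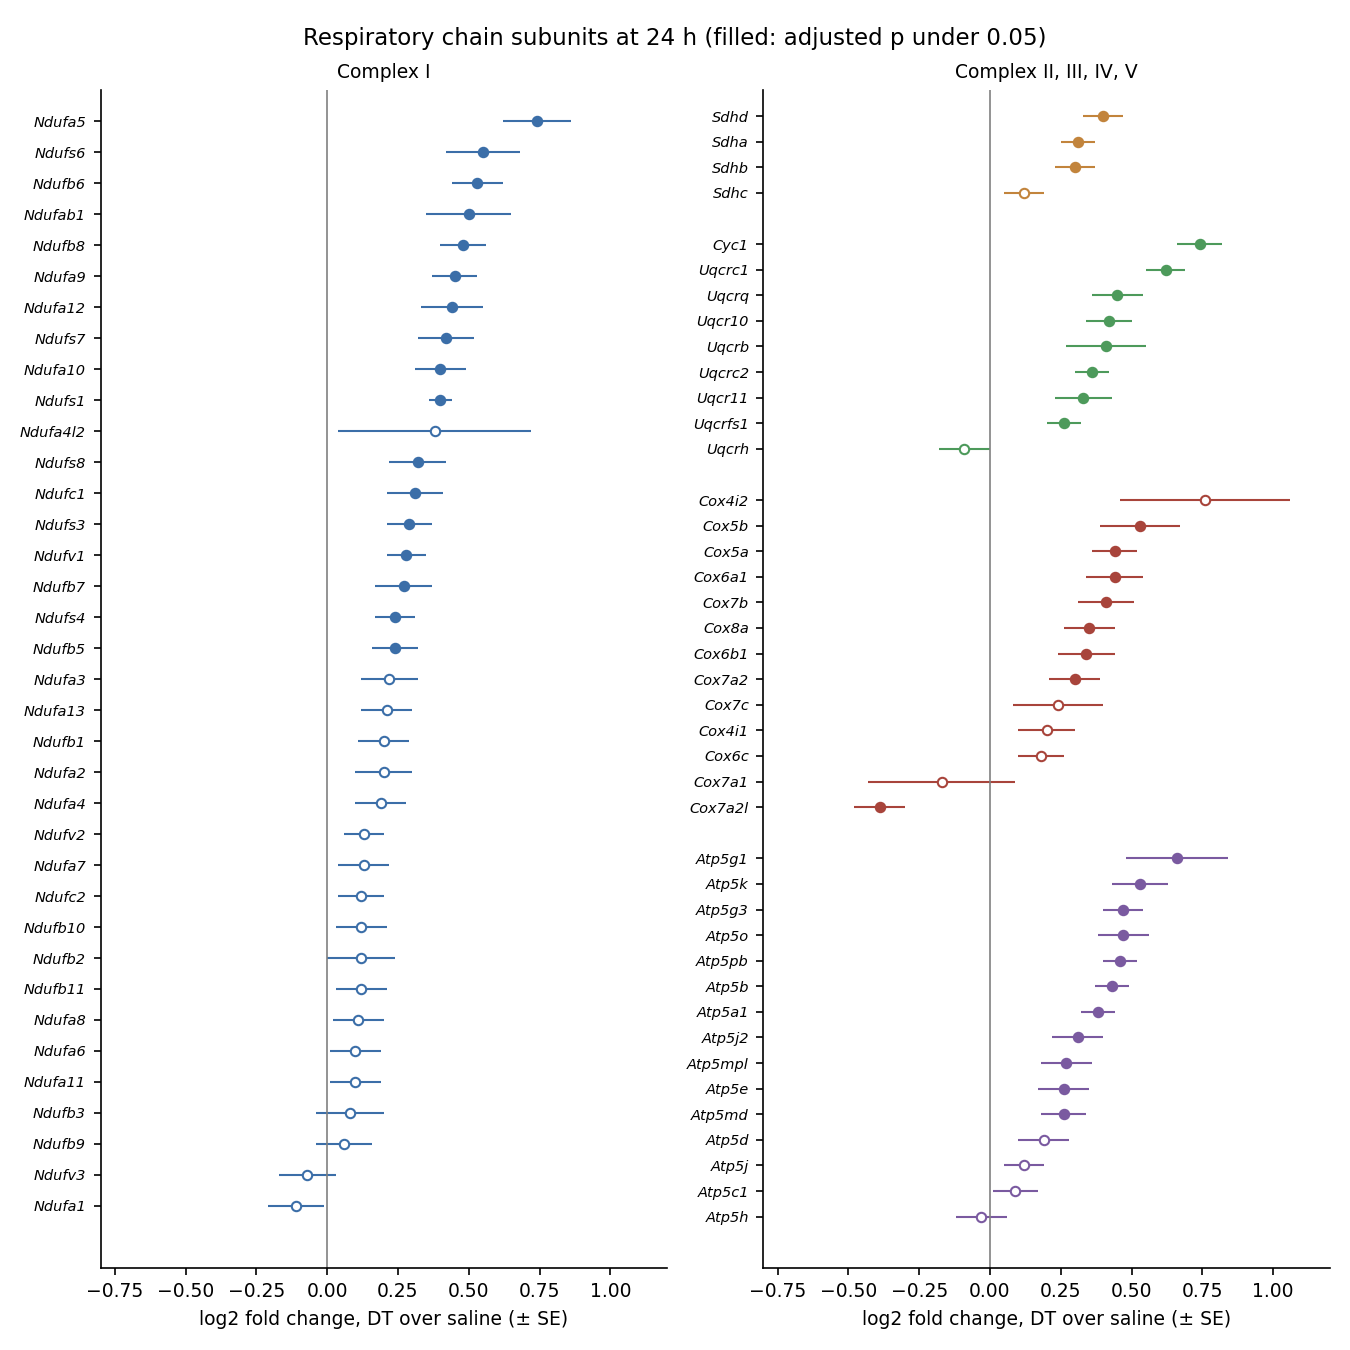
Log2 fold change of DT over saline at 24 h for 77 of the members, with its standard error, by complex (n = 4 libraries a group); filled points passed the test. Most points lie to the right of 0, and Cox7a2l, at -0.39, is the filled point to the left.

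Markers of other cell types were lower in level or close to absent. Those of macrophages and monocytes summed to 230.4 to 588 CPM in DT at 24 h and 355 to 489 in saline (1 of 12 called higher), and those of endothelium to 322 to 366 in DT and 240.0 to 346 in saline (1 of 8 called higher). Mast cell markers summed to 51.6 to 116 CPM in DT and 70.5 to 110.4 in saline, with 1 called higher and 2 called lower, Ms4a2 (-6.49) and Tpsb2 (-3.18). The median sums were 7.12 CPM in DT and 4.22 in saline for neutrophils, 0.810 in DT and 0.540 in saline for T and NK cells, and 1.89 in DT and 1.61 in saline for B and plasma cells. Nkg7 and Ncr1 were at 0 in all 24 libraries. The 9 markers of muscle and brown fat, both rich in mitochondria, summed to 23.4 to 29.4 CPM in DT and 12.4 to 18.2 in saline. Most of this came from Acta1 and Cidea, with medians of 7.75 and 7.38 CPM. Adipoq, Myh1, Myh2 and Myl1 were at 0 in 16, 18, 23 and 12 of the 24 libraries. Only 3 of the 9 markers were high enough to be tested. All 3 were called higher, among them Ucp1 (log2 fold change 3.73) and Cidea (0.75), and Ucp1 was at most 1.97 CPM in any library. Their part in the result was not tested.

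Complex I holds 7 nuclear-encoded core subunits, which carry its flavin and iron-sulfur clusters and the quinone site, and 30 members outside that core. At 24 h 18 of the 37 rose and none fell, with a median log2 fold change of 0.24. Ndufs1, the large iron-sulfur subunit (chr1:63143592-63176822, GRCm38), had 142, 129, 147 and 139 CPM in DT, against 106, 105, 103 and 107 in saline, so the groups did not overlap. Its log2 fold change was 0.40 ± 0.04 (SE, adjusted p = 2.6e-07). Of the core, 6 of 7 rose, with Ndufv2 at 0.13 not passing the test (adjusted p = 0.177).

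Among the 30 members of complex I outside the core, 12 rose. Supernumerary subunits stabilise the core and take part in its assembly, and the 30 include Ndufa4 and Ndufa4l2, assigned by name. Ndufa5, of the matrix arm, had 24.9, 22.9, 31.4 and 27.8 CPM in DT, against 15.5, 15.9, 16.2 and 16.3 in saline, a 1.67-fold difference and the largest of complex I (log2 0.74 ± 0.12, adjusted p = 4.1e-05). Ndufb8, of the membrane arm, averaged 86.1 ± 7.97 CPM in DT and 61.7 ± 2.70 in saline (SD, n = 4 each; 0.48, adjusted p = 3.5e-05 by edgeR). Ndufa9, near the quinone site, averaged 95.0 ± 9.32 in DT and 69.5 ± 2.34 in saline (SD, n = 4 each; 0.45, adjusted p = 6.1e-05 by edgeR). At the other end, Ndufa1 at -0.11 and Ndufv3 at -0.07 were the only complex I members with a negative value, and neither passed the test. The libraries did not separate for Ndufa4, at 142, 132, 172 and 144 CPM in DT and 130.2, 129, 119.6 and 138 in saline, nor for Ndufa4l2, at 2.91, 9.17, 6.43 and 3.72 in DT and 4.72, 4.12, 3.88 and 4.86 in saline.

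Complex II, succinate dehydrogenase, is wholly nuclear-encoded and belongs to the citric acid cycle as well. At 24 h 3 of its 4 subunits rose, with a median log2 fold change of 0.30. Sdha, the flavoprotein, had 336, 312, 360.2 and 368 CPM in DT, against 294, 271, 271 and 278 in saline (0.31 ± 0.06, adjusted p = 1.1e-04). Its iron-sulfur partner Sdhb had 96.3, 101, 118 and 102 CPM in DT, against 83.9, 87.2, 81.3 and 86.0 in saline (0.30 ± 0.07, adjusted p = 9.6e-04). Both members of the catalytic dimer were thus higher by nearly the same amount, without overlap. Of the membrane anchors, Sdhd had 189, 180.4, 208 and 211 CPM in DT, against 157, 149.6, 145 and 145 in saline (0.40 ± 0.07, adjusted p = 9.6e-05), while Sdhc, at 0.12 ± 0.07, did not pass (adjusted p = 0.168).

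Complex III, the cytochrome bc1 complex, had 8 of 9 subunits called higher at 24 h and the highest median of the complexes, 0.41. Cyc1, the haem-bearing cytochrome c1 (chr15:76343513-76346260, GRCm38), had 210.2, 216, 261 and 223 CPM in DT, against 145, 139, 133 and 129 in saline. That is a 1.67-fold difference (log2 0.74 ± 0.08, adjusted p = 1.2e-07), the smallest adjusted p among the members. Uqcrc1, a core protein (chr9:108936648-108949641), had 268, 276, 328 and 293 CPM in DT, against 204, 183, 184 and 187 in saline (0.62 ± 0.07, adjusted p = 4.1e-07).

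The other core protein, Uqcrc2, had 239, 221, 258 and 261 CPM in DT, against 199.6, 193, 186 and 183 in saline (0.36 ± 0.06, adjusted p = 4.2e-05). The Rieske iron-sulfur protein Uqcrfs1 averaged 109.9 ± 7.94 CPM in DT and 92.0 ± 3.13 in saline (SD, n = 4 each; 0.26, adjusted p = 0.00143 by edgeR). The groups were separate for both. Among the small subunits Uqcr10 (0.42) and Uqcrq (0.45) rose, and Uqcrh, the hinge protein that contacts cytochrome c1, did not follow: it had 89.0, 82.0, 96.9 and 101 CPM in DT, against 107, 92.4, 93.7 and 100.1 in saline (-0.09 ± 0.09, adjusted p = 0.462).

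In complex IV, cytochrome c oxidase, the catalytic subunits are mitochondrially encoded and the nuclear members surround them. At 24 h 7 of 13 rose and 1 fell, with a median of 0.34. Cox5a, a matrix-side subunit, had 118, 125, 142 and 128 CPM in DT, against 99.7, 93.1, 92.9 and 92.3 in saline (0.44 ± 0.08, adjusted p = 2.2e-04). Cox6a1 (0.44 ± 0.10), Cox7b (0.41 ± 0.10) and Cox5b (0.53 ± 0.14), whose libraries also did not overlap, followed with adjusted p of 8.4e-04, 0.00206 and 0.00500. Cox4i1, the most abundant member of the complex, had 310.1, 307, 373 and 366 CPM in DT, against 322, 289, 289 and 282 in saline, and did not pass (0.20 ± 0.10, adjusted p = 0.119).

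The exception in direction was Cox7a2l, which is also called SCAF1 and is known as a factor that joins complexes III and IV in supercomplexes (chr17:83501917-83514333, GRCm38). It had 69.9, 67.2, 74.0 and 82.7 CPM in DT, against 103, 93.4, 90.4 and 99.2 in saline, with every DT library below every saline library. Its log2 fold change was -0.39 ± 0.09 (adjusted p = 9.6e-04). Its relative Cox7a2, a structural subunit of complex IV, went the other way, with 84.1, 86.0, 110.3 and 95.4 CPM in DT, against 84.0, 73.0, 74.8 and 73.9 in saline (0.30 ± 0.09, adjusted p = 0.0113). The third form, Cox7a1, at 1.70 ± 0.567 CPM in DT and 1.84 ± 0.452 in saline (SD, n = 4 each), was not called. Cox4i2, at 1.11, 2.46, 1.89 and 2.10 CPM in DT and 1.60, 1.12, 0.776 and 1.08 in saline, had the largest fold of all members, with overlapping groups (0.76 ± 0.30) and lay just outside the threshold of 0.05 on its adjusted p. It was called under 6 of the 16 alternatives. Cox6b1 (0.34) and Cox8a (0.35) rose.

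Complex V had 11 of 15 members called higher at 24 h, with a median of 0.31. In the catalytic F1 head, Atp5b had 1596, 1543, 1797 and 1705 CPM in DT, against 1306, 1206, 1164 and 1249 in saline (0.43 ± 0.06, adjusted p = 1.3e-05). Atp5a1 had 1225, 1176, 1369.9 and 1305 CPM in DT, against 1018, 974, 925 and 987 in saline (0.38 ± 0.06, adjusted p = 2.7e-05). The gamma subunit Atp5c1, the rotor shaft that turns inside this head, did not pass (0.09, adjusted p = 0.359).

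The c-ring genes Atp5g1 and Atp5g3 encode the same mature protein. Atp5g3 had 271, 274, 327 and 291 CPM in DT, against 216, 203, 205 and 212 in saline (0.47 ± 0.07, adjusted p = 1.5e-05), and the much scarcer Atp5g1 8.65, 9.45, 13.6 and 10.9 in DT, against 6.18, 7.72, 5.71 and 7.48 in saline (0.66 ± 0.18, adjusted p = 0.00479). Both were higher in every DT library. In the peripheral stalk, which holds the head still, Atp5pb had 153, 147, 176 and 154 CPM in DT, against 120.2, 115, 110.2 and 112 in saline (0.46 ± 0.06, adjusted p = 5.5e-06), and Atp5o rose (0.47), while Atp5h (-0.03) and Atp5j (0.12) did not pass. All 4 members of the membrane and dimer group, which includes Atp5k (0.53), were called higher.

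Set side by side, the complexes were each higher in summed level at 24 h. The summed CPM were 36.0% higher in DT for complex III, 29.3% for V, 23.2% for II, 19.4% for IV and 18.8% for I, and for each complex every DT library lay above every saline library. Complex III, for example, summed to 1099.9, 1098, 1294 and 1204 CPM in DT, against 919, 848, 845 and 842 in saline, and complex I to 2350.0, 2351, 2790.1 and 2585 in DT, against 2238, 2073, 2040.3 and 2133 in saline. Sums weigh the most abundant genes most, such as Atp5b in complex V. By median log2 fold change the order was III (0.41), IV (0.34), V (0.31), II (0.30) and I (0.24). Differences between complexes were not tested. Ndufa4 is counted in complex I by its name, though since placed in complex IV. At 48 h the sums were 19.1% higher in DT for complex III, 15.3% for V, 14.7% for IV, 11.8% for I and 9.4% for II, and at 96 h between 0.8% and 5.7% higher, with overlapping groups for every complex at both times. Without DT replicate 3 at 48 h the sums at that time were 23.7% higher for III, 21.2% for IV, 19.7% for V and 16.6% for I, with the smallest difference for II, and no complex overlapped. DT replicate 1 had the highest sum of its group for every complex at 48 h. With that library left out instead, every complex overlapped, and the median log2 fold change of the members was 0.08.

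**Figure D3:**
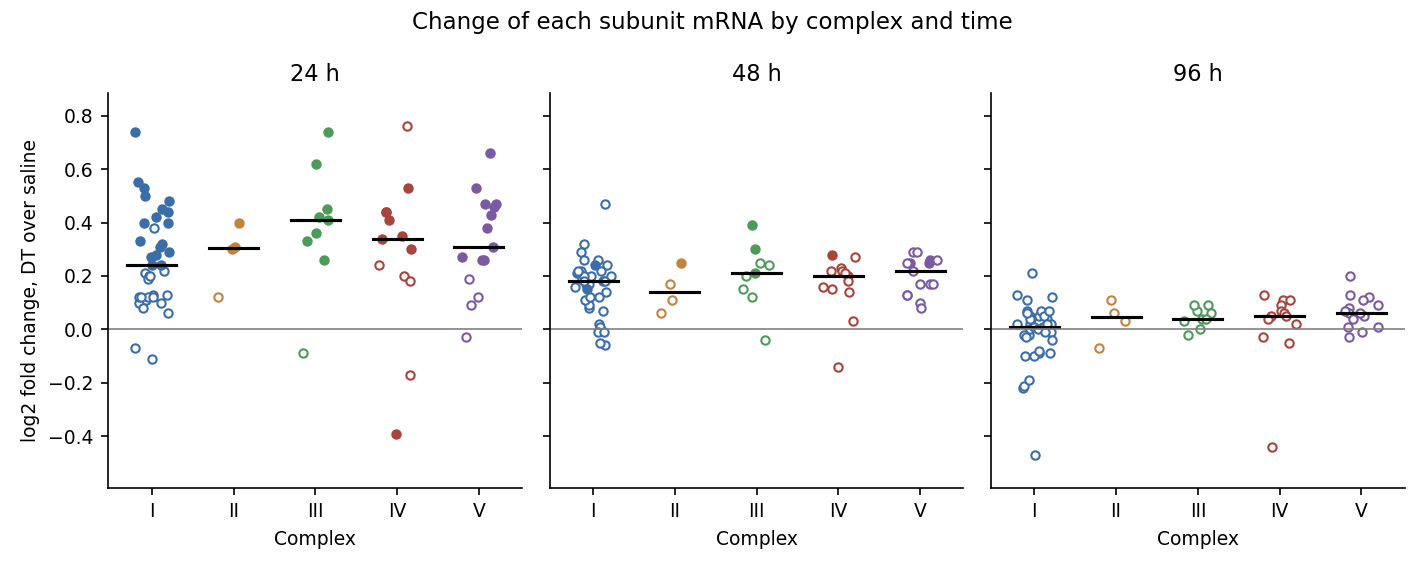
Log2 fold change of DT over saline for each member at 24, 48 and 96 h, by complex; filled points passed the test and black lines are medians. The medians lie between 0.24 and 0.41 at 24 h, and no point is filled at 96 h.

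At 48 h the same direction held at smaller size. Of the 78 members 10 rose, none fell and 68 did not pass, where 4.83% of all genes were called higher and 6.5% lower. The members' share called higher was 12.8%. Their median log2 fold change was 0.19, and that of all genes -0.002. All 10 had also been called higher at 24 h, among them Ndufs1 of complex I, Sdhd of II, Cyc1, Uqcrc1 and Uqcrc2 of III, Cox5a of IV, and Atp5b, Atp5g3 and Atp5pb of V. In 7 members the DT libraries lay above all saline libraries, a share near the 7.16% of all genes. Without DT replicate 3 there were 37 such members (47.4%, background 12.4%). This count was not made without DT replicate 1.

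Uqcrc1 had the smallest adjusted p at 48 h. It had 281, 237, 211 and 239.7 CPM in DT, against 175, 185, 197 and 184 in saline (0.39 ± 0.07, adjusted p = 0.00115). Cyc1 had 190.2, 148, 138 and 163 CPM in DT, against 125, 128, 136 and 130.1 in saline (0.30 ± 0.08, adjusted p = 0.0128). Replicate 1 was the highest DT library for both and replicate 3 the lowest, and neither gene overlapped between the groups. Sdhd had 177, 156, 138 and 162 CPM in DT, against 124, 135, 137 and 138 in saline (0.25 ± 0.07, adjusted p = 0.0278). Atp5b, at 1459.8, 1283, 1164 and 1315 CPM in DT and 1005, 1091, 1168 and 1123 in saline, was called with overlapping groups (0.25 ± 0.06, adjusted p = 0.0134). Without DT replicate 3 the log2 fold changes were 0.46 for Uqcrc1, 0.38 for Cyc1, 0.32 for Sdhd and 0.32 for Atp5b, with adjusted p of 9.0e-05, 0.00141, 0.00340 and 0.00184 by edgeR. With DT replicate 1 left out instead, 6 of the 10 calls at 48 h were lost, and those of Uqcrc1 and Cyc1 were kept.

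The count at 48 h depended on single libraries. It was 39 without DT replicate 3, the library in which Lgr5 was within the saline range and the members summed to 7369 CPM, and the members' median was then 0.26. The share of all genes called higher was 7.72% in that fit, against 4.83% with the library. It was 4 without DT replicate 1, in which they summed to 9785, and the members' median was then 0.08, with 3.58% of all genes called higher. It was 5 without DT replicate 4, 2 without saline replicate 1 and 5 without saline replicate 2, where 2.49%, 2.48% and 3.01% of all genes were. It was 1, Uqcrc1, when only the libraries of that time were fitted (2.24% of all genes). The members' share in that fit was below that of all genes, and without saline replicate 1 it was near that of all genes. Without each single library in turn, Uqcrc1 and Cyc1 kept their calls. The summed CPM were 9785, 8196, 7369 and 8242 in DT, against 6909.7, 7322, 7728 and 7446 in saline, 14.2% more with overlap, and 18.9% more with no overlap without DT replicate 3. Fibroblast markers summed to 7733 to 12455 CPM in DT and 4025 to 7899.8 in saline at this time, with 0 of 12 called. All 12 had a positive log2 fold change, with a median of 0.55 (0.56 without DT replicate 3), larger than the members' 0.19, and in 5 of them every DT library lay above every saline library. Their part in the result was not tested.

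At 96 h no member was called in either direction, where 4.03% of all genes were called, 1.01% higher and 3.02% lower. At an unadjusted p under 0.05 there were 2 members. The share of all genes under that threshold was not counted, so these 2 are not read as a remaining effect. DESeq2 called 0 members. The median log2 fold change was 0.04, with a range of -0.47 (Ndufa4l2) to 0.21, and 54 values were positive and 24 negative. In 4 members all DT libraries lay above the saline libraries and in 1 below (background 4.91% and 6.7%). The members summed to 7331, 7339.8, 7612 and 7699 CPM in DT, against 7386, 7094, 7616 and 6874 in saline, and the groups overlapped. Cyc1 had 132, 136, 135 and 139.8 CPM in DT, against 131, 125, 134 and 126 in saline (0.07 ± 0.08, adjusted p = 0.760), and Cox7a2l had 84.8, 82.8, 90.6 and 87.4 in DT, against 83.1, 81.7, 89.6 and 76.6 in saline (0.06 ± 0.09, adjusted p = 0.836). Lgr5 was still lower at this time (-0.43 ± 0.12, adjusted p = 0.0447).

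**Figure D4:**
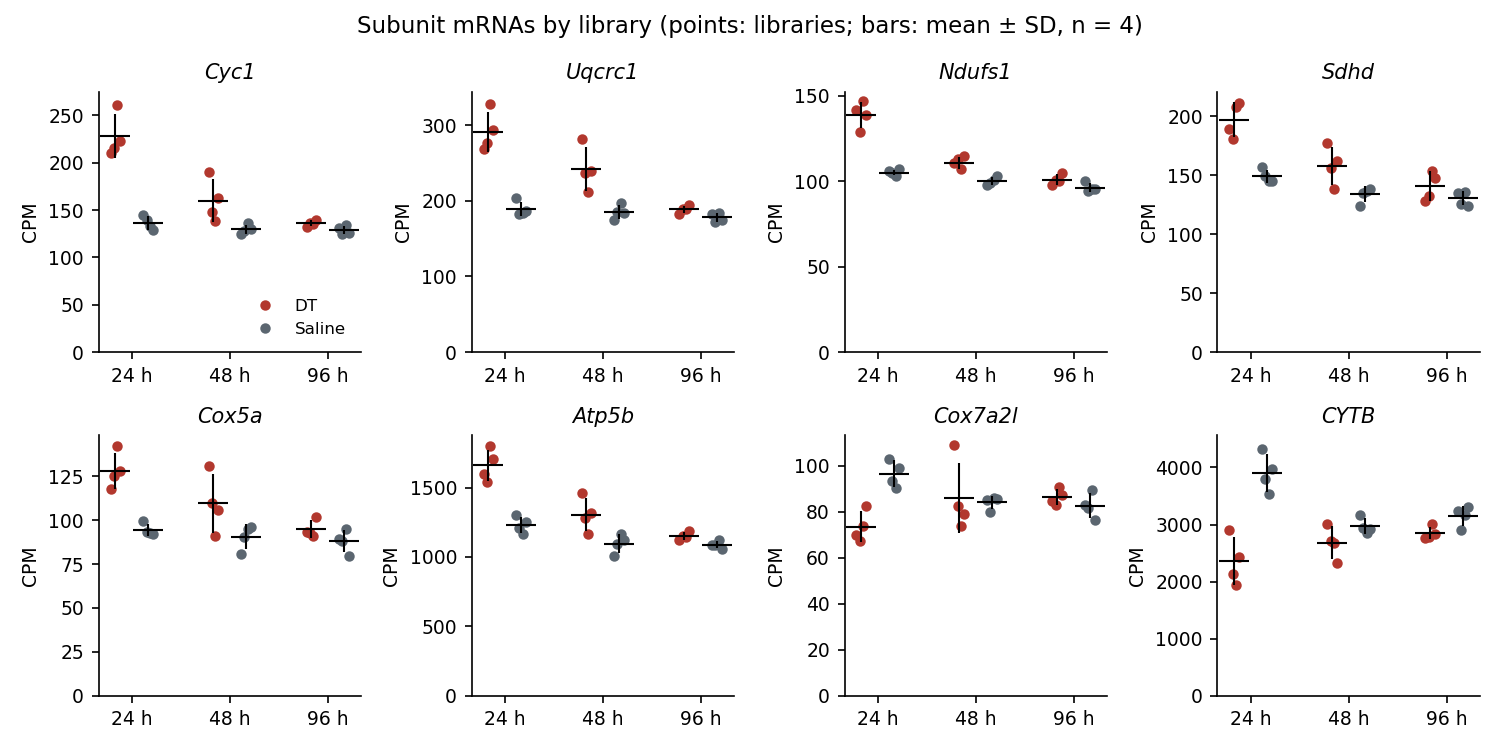
CPM of 7 members and of the mitochondrially encoded CYTB in each library at 24, 48 and 96 h, DT in red and saline in grey; black marks are mean ± SD (n = 4). Cyc1 in DT is at 228 CPM at 24 h and 136 at 96 h, while its saline means lie between 129 and 136, and Cox7a2l is lower in DT at 24 h alone.

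The decline of the effect with time was tested gene by gene as the difference of the DT effect among times. The joint test called 12 of the 78 members, where 7.97% of all genes were called. In order of adjusted p they were Cyc1 (0.00122), Ndufs1 (0.00329), Uqcrc1 (0.00446), Cox7a2l (0.0297), Atp5pb (0.0302), Ndufa5 (0.0383), Atp5a1 (0.0387), Ndufb6 (0.0390), Sdhb (0.0391), Sdha (0.0439), Ndufb8 (0.0458) and Atp5b (0.0489). All 12 had been called at 24 h. For Cyc1 the log2 effect was lower by 0.44 at 48 h than at 24 h (-0.44 ± 0.11, adjusted p = 0.0261), and the drop by 96 h was larger (-0.67 ± 0.11, adjusted p = 4.4e-04). Ndufs1 and Cyc1 were the 2 members whose effect differed between 48 and 24 h. That share of the 78 was slightly below the 2.89% of all genes. Between 96 and 24 h 20 members differed (11.9% of all genes), 19 of them with a smaller value at 96 h, the other being Cox7a2l (0.46 ± 0.12, adjusted p = 0.0178).

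Cyc1, Ndufs1 and Uqcrc1 were called by the joint test under all 31 alternatives, while the count of 12 varied between 3 and 26 as single libraries were left out. It was 3 without DT replicate 3 at 24 h, where 6.13% of all genes were called, and 26 without DT replicate 1 at 48 h, where 11.7% were. It was between 4 and 7 without DT replicate 1 or 4 or any saline replicate at 24 h, DT replicate 2 or 4 or saline replicate 2 or 4 at 48 h, and any DT replicate or saline replicate 1, 2 or 3 at 96 h, where 4.74% to 8.77% of all genes were called. Without DT replicate 3 at 48 h it was 8 (7.94% of all genes). In several fits that left out a library, among them the one that gave 3, the members' share was below that of all genes. Across the members, 74 of 78 had a smaller log2 value at 96 h than at 24 h, and in 60 the value was smaller at each later time. The 3 comparisons use separate libraries.

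The mitochondrially encoded subunits, translated inside the organelle and assembled with the nuclear ones, were lower at 24 h. Of the 13 such genes 8 were tested, and 7 fell: COX1, CYTB, ND1, ND2, ND4, ND5 and ND6. The median log2 fold change of the 8 was -0.59. CYTB, cytochrome b of complex III, had 2908, 2137, 1941 and 2434 CPM in DT, against 4322, 3801, 3531 and 3974 in saline (-0.73 ± 0.10, adjusted p = 2.5e-06). COX1, the catalytic subunit of complex IV, had 3169.8, 2297, 1966 and 2515 CPM in DT, against 4073, 3474, 3361 and 3842 in saline (-0.57 ± 0.10, adjusted p = 5.8e-05). ND1, of complex I, had 1819, 1398, 1335 and 1537 CPM in DT, against 2477, 2154, 2054 and 2274 in saline (-0.56 ± 0.09, adjusted p = 3.0e-05). Within complex III, then, CYTB was lower in the same libraries in which Cyc1 was higher, and neither overlapped between the groups.

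Summed CPM of these genes at 24 h were 10915, 8234, 7404 and 9193 in DT, against 15377, 13239, 12503 and 13986 in saline, 35.1% less with no overlap. The saline libraries of 24 h were themselves the highest of the series: the saline sums were 10431 to 11401 CPM at 48 h and 10353 to 11623 at 96 h, and the highest DT sum at any time was 10927. At 48 and 96 h the DT sums were 8.8% and 6.3% lower, with overlap, and 0 of 8 genes were called at either time; without DT replicate 3 the sums at 48 h were 8.1% lower, again with overlap and 0 called. The difference among times was called for all 7, with CYTB at an adjusted p of 0.00754. The count of 7 at 24 h was the same under each of the 16 alternatives. ATP6, ATP8, COX2, COX3, ND3 and ND4L averaged under 1 CPM in every group. Of these COX2 alone was tested (-0.30 ± 0.39 at 24 h), and it is counted among the 8 and in their median. Beyond this and the sums, nothing is drawn from them here.

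**Figure D5:**
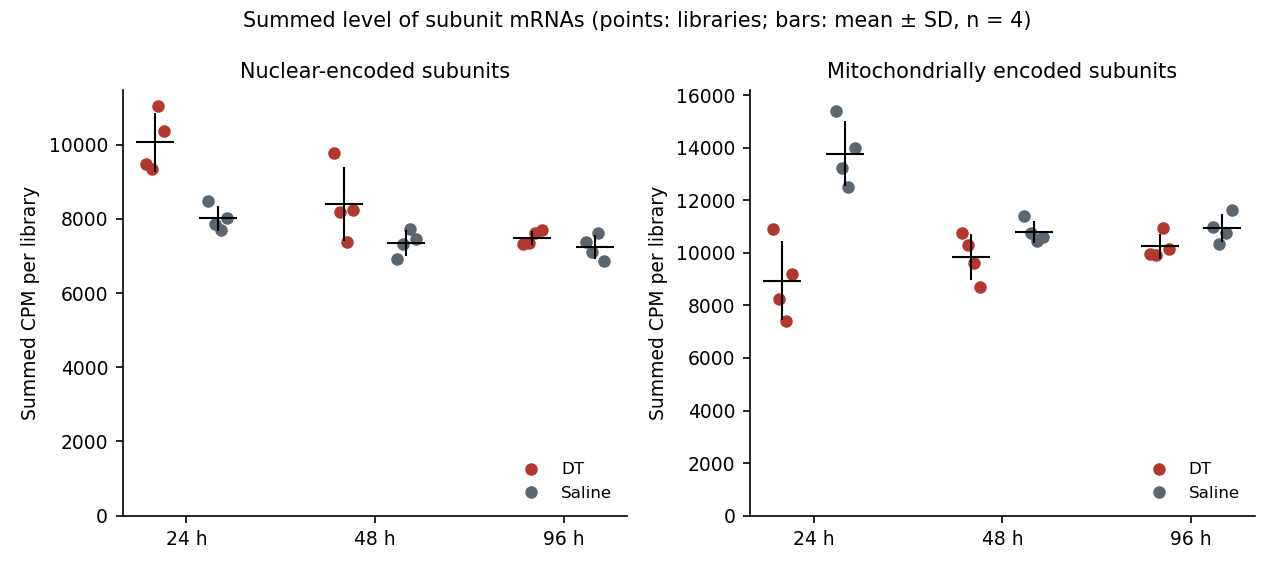
Summed CPM of the 78 nuclear-encoded members (left) and of the mitochondrially encoded subunits (right) in each library at 24, 48 and 96 h, DT in red and saline in grey; black marks are mean ± SD (n = 4). At 24 h the DT libraries are above the saline libraries on the left (9341 to 11042 against 7705 to 8472 CPM) and below them on the right (7404 to 10915 against 12503 to 15377 CPM).

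Of the lists of genes that build or feed the chain, most held a larger share called higher at 24 h than the 19.9% of all genes. Of 78 mitochondrial ribosomal proteins tested, which translate the mitochondrially encoded subunits, 59 (75.6%) rose and none fell (median 0.35), among them Mrpl38, Mrpl45 and Mrps27 with log2 fold changes of 0.64, 0.55 and 0.56. Of 22 genes of mitochondrial protein import 15 (68.2%) rose and 1 fell (median 0.33), with Timm44 (0.44), Tomm40 (0.68) and Timm29 (0.28) higher and Tomm20, a receptor of the outer membrane, lower at -0.34. Of 14 complex I assembly factors 7 (50%) rose (median 0.19), including Ndufaf4 (0.53) and Ndufaf6 (0.62), and of 36 assembly factors of complexes II to V 14 (38.9%) rose (median 0.17), including Cox18 (0.72), Cox10 (0.64), Cox11 (0.44) and Tmem70 (0.38). None of either group fell.

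Of 17 genes of cytochrome c, ubiquinone synthesis and the electron transfer flavoprotein 10 (58.8%) rose (median 0.30). Pdss1, which makes the side chain of ubiquinone, had 16.5, 16.6, 19.5 and 15.9 CPM in DT, against 7.43, 8.02, 9.81 and 9.79 in saline, a 1.96-fold difference (0.97 ± 0.11, adjusted p = 4.3e-07). Coq3, a methyltransferase of the same route, was higher by 0.77 and Coq10b, a ubiquinone-binding protein, by 0.57. Of 17 genes of pyruvate dehydrogenase and the citric acid cycle 12 (70.6%) rose (median 0.25), with Ogdh and Dlst, both of the oxoglutarate dehydrogenase complex, at 0.37. The regulators of mitochondrial biogenesis were nearer to the background: 5 of 18 (27.8%) rose (median 0.14), among them the mitochondrial RNA polymerase Polrmt (0.46) and the coactivator Pprc1 (0.44).

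Of 16 glycolysis genes, 7 fell, none rose and 9 were not called at 24 h (median -0.22, 12 values negative and 4 positive), where 18.9% of all genes fell. At 48 h 2 of the 16 fell (6.5% of all genes) and 4 without DT replicate 3, and at 96 h 4 fell (3.02% of all genes). Slc2a1, the glucose transporter GLUT1, had 224, 234, 269.8 and 256 CPM in DT, against 415, 369, 414 and 423 in saline at 24 h (-0.72 ± 0.11, adjusted p = 1.4e-05), and was also lower at 48 h (-0.53) and 96 h (-0.44). Hk2, which phosphorylates glucose, was lower at each time (-0.28, -0.35 and -0.36), and Pfkm at 24 h (-0.40). Slc2a1 and Hk2 were thus also lower at 96 h, when no respiratory chain member was called.

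At 48 h the counts called higher were 14 of 78 for mitochondrial ribosomal proteins, 5 of 22 for import with Tomm20 lower at -0.26, 4 of 17 for cytochrome c and ubiquinone, 3 of 17 for pyruvate dehydrogenase and the citric acid cycle, 2 of 14 and 3 of 36 for assembly factors and 1 of 18 for regulators, where 4.83% of all genes were called higher. The last 2 shares, 8.33% and 5.56%, were near that background. Without DT replicate 3 the counts were 30, 11, 6, 6, 3, 5 and 2 in the same order, where 7.72% of all genes were called higher. These counts moved with single libraries as the members' did, with 3 to 30 for the ribosomal proteins over the alternatives. At 96 h none of these lists held a gene called in either direction.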

How the data were processed

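RNA of sorted cells was extracted with the RNeasy Micro kit, per the labels' protocols, and sequenced as polyA RNA. The authors deposited 1 table per library with a count and an nRPKM; per the file headers, the count is of uniquely aligned reads and the nRPKM is an RPKM that the authors adjusted by a size factor. GSNAP and GRCm38 are named in the submitters' processing notes, while the sources used here give neither strand use nor annotation. Symbols came from RefSeq GRCm38.p6, which matched 31049 (85.0%) of 36528 identifiers. Members and gene lists were chosen with earlier results of these data known.

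The count test was edgeR 4.0.16 under R 4.3.3 (robust quasi-likelihood, TMM, filtering by expression within groups, 17468 genes, 1 fit over 24 libraries with 18 residual degrees of freedom), two-sided, with Benjamini-Hochberg adjustment over all genes and a threshold of 0.05. CPM use TMM library sizes, and SE is the log2 change over the square root of F. No copies of a library were found (chi-square per degree of freedom at least 3.97). The test was checked on simulated counts. nRPKM served for levels per length and to recover the authors' size factors, with 11928 genes fitting to a relative deviation of at most 9.8e-15. Same-numbered samples share only a number.

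Named were, per complex and time, up to 4 called members with the smallest p in each direction, isoform pairs, members around the threshold of 500 counts, the highest and lowest per complex, the 6 smallest joint p, and up to 2 called genes per related list and time. The other members, list genes beyond these and their subunit classes were chosen after their values were seen. The results of 1 member are not reported here. Alternatives were median-of-ratios, upper quartile and the authors' scaling, no filter, a mean of at least 1 CPM, DESeq2 1.42.0, a replicate block, only the libraries of that time, and each library left out.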

Additional observations from a re-analysis of the deposited data

Results flagged for a closer look

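Among groups of 4 libraries, 5 of 168 examined held a library set apart from the other 3, where chance alone gives about 8.4. At 48 h DT replicate 1 was the highest of its group for Ndufa5 (24.5 CPM) and Uqcrh (122 CPM). At 24 h saline replicate 1 was the highest of its group for Cox5a (99.7 CPM) and for the summed complex III members (919 CPM). At 48 h saline replicate 2 was the lowest of its group for Cox7a2l (79.9 CPM).

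The DT effect differed among 24, 48 and 96 h for 12 members, by edgeR's joint interaction test. The adjusted p was 0.00122 for Cyc1, 0.00329 for Ndufs1, 0.00446 for Uqcrc1, 0.0297 for Cox7a2l, 0.0302 for Atp5pb and 0.0383 for Ndufa5. It was 0.0387 for Atp5a1, 0.0390 for Ndufb6, 0.0391 for Sdhb, 0.0439 for Sdha, 0.0458 for Ndufb8 and 0.0489 for Atp5b. In 11 of them the effect was positive at 24 h and smaller at 96 h, and in Cox7a2l it was negative at 24 h.

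The mitochondrially encoded genes also differed among times, with adjusted p of 0.0350 for COX1, 0.00754 for CYTB, 0.0353 for ND1, 0.0371 for ND2, 0.0147 for ND4, 0.00979 for ND5 and 0.0240 for ND6. For these 7 the effect was less negative at 96 h than at 24 h.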

How the results depend on the processing

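At 24 h the direction and the counts held under all 16 alternatives, with 38 to 50 members higher (38 to 49 as single libraries were left out) and 1 lower in each, and 37 of the 48 calls were made under every alternative; the other 11 were lost only through single libraries. In these alternatives 12.2% to 20.7% of all genes were called higher at 24 h. At 48 h upper quartile scaling gave 16 members higher, where 5.87% of all genes were, and a fit of only the libraries of that time gave 1, where 2.24% were. In the latter fit the members' share was below that of all genes. Leaving out single libraries gave 2 to 39 members higher and medians of 0.08 to 0.26 at 48 h, where 2.48% to 7.72% of all genes were called higher. The members' share in the fit that gave 2 was near that of all genes. At 96 h every alternative gave 0 calls. The members with a time-dependent effect were 6 with no filter, where 3.54% of all genes were called, and 4 with the replicate block, where 6.34% were. They were 3 to 26 as single libraries were left out, where 4.74% to 11.7% of all genes were called. With the block, and in the fit that gave 3, the members' share was below that of all genes. It was also below without saline replicate 3 at 24 h, and without DT replicate 2 or saline replicate 2 or 4 at 48 h. The same held without any single DT replicate, or without saline replicate 3, at 96 h. An excess of the members in this test thus depended on single libraries. Same-numbered libraries deviated from their group means with correlations of -0.36 to 0.13, so the numbers were not taken as pairs. The replicate block gave 47 higher and 1 lower at 24 h, 9 higher at 48 h and none at 96 h. With the block 19.3% of all genes were called higher at 24 h and 3.93% at 48 h. Other scalings moved every fold change by at most 0.026 on the log2 scale. With 4 libraries a group, changes near 1.2-fold lie at the edge of what passes, so members not called are not shown to be unchanged, and the scarcest members (Cox4i2, Cox7a1, Ndufa4l2) have the widest errors.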
